A study of Mus musculus with 6 samples.

Results

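The genes described here remodel the matrix around cells. They are 5 matrix metalloproteinases (Mmp2, Mmp3, Mmp9, Mmp13 and Mmp14), the 3 tissue inhibitors Timp1, Timp2 and Timp3, urokinase (Plau) and the urokinase receptor (Plaur). They were chosen by name, and all 10 were found among the 20938 genes of the expression table. Metalloproteinases of this family are made with a propeptide that must be cut off before the enzyme can digest collagens, fibronectin or other matrix proteins, and TIMPs block the active enzymes. Urokinase bound to its receptor turns plasminogen into plasmin, which digests fibrin and can activate several metalloproteinases. In tumours these RNAs come from cancer cells, fibroblasts, macrophages and vessels alike.

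RNA was sequenced from 6 whole tumours, 3 of B16F10 cells overexpressing YKL-40 and 3 control tumours. B16F10 is a mouse melanoma line and YKL-40 is a secreted chitinase-like protein. Both groups were grown under the skin beside the left hind leg in male C57BL/6 mice aged 6 weeks and collected on day 19. The genotype label is WT in both groups, and the labels leave out the vector in the controls, the species of the overexpressed sequence and whether the cells of a group were 1 clone. Separate mice per library are not stated either, so every p-value measures only the spread between these libraries.

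Values are FPKM, sequenced fragments scaled to transcript length and library depth, so levels can be compared between genes. Differences are YKL-40 minus control on the log2(FPKM + 1) scale, which understates differences between low values. Relative to control library 1, the libraries had estimated depths of 0.95 to 1.33, while the number of reads behind each value is unknown. The melanocyte genes that mark the injected cells were present in every library, with Pmel, a pigment fibril protein, between 3656 and 5461 FPKM. The mouse gene of YKL-40 itself, Chil1, was at 0 FPKM in all 3 YKL-40 libraries and at most at 0.0644 FPKM in a control, so it does not check the labels, and all directions rest on the labels.

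No member passed the test after adjustment over all tested genes. Of the 9 members tested in limma, 0 passed an adjusted p of 0.05, beside 0.436% of all 11241 tested genes (0.365% higher and 0.0712% lower in YKL-40 tumours). With unadjusted p-values 3 of the 9 lay under 0.05, beside 18.0% of all tested genes. These were Mmp3 and Plau, higher in YKL-40 tumours beside 8.71% of all genes, and Mmp14, lower beside 9.24%. Groups without overlap occurred in 1 of the 9, Mmp3, which was higher in YKL-40 tumours. The share of tested genes without overlap was 24.4%, with 10.3% higher and 14.2% lower in YKL-40 tumours. The median difference was 0.46 over the 9 tested members and -0.04 over all tested genes.

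Promoters could be compared for 7 members, using RefSeq sequence of build GRCm38.p6 from the 250 bases before the transcript start that the sequence table uses. The AP-1 motif, TGANTCA on either strand, is the site of Fos and Jun proteins and a textbook element of metalloproteinase promoters. It was present before Mmp3, Mmp13 and Plaur, and in 6.75% of 32851 windows of the same length. The 120 bases before the start of those 3 genes are shown because Mmp3 and Mmp13 share this motif but were highest in different libraries. Capitals mark the AP-1 match. The first is chr9:7445702-7445821, the second chr9:7272394-7272513 and the third chr7:24462363-24462482, all on the plus strand. For Plaur this transcript start is at 24462483, inside the longer span that RefSeq gives for the gene, which begins at 24460937, and for the other 6 it is the gene's own first base.
Mmp3: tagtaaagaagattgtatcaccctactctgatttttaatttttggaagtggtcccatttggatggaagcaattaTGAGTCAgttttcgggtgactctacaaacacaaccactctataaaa
Mmp13: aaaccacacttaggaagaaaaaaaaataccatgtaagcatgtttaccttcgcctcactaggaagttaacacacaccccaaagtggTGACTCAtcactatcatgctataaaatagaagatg
Plaur: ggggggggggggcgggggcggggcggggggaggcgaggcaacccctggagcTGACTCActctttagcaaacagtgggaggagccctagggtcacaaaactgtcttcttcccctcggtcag
The match begins 46 bases before the start of Mmp3, 35 before that of Mmp13 and 69 before the transcript start used for Plaur.
Mmp3 and Mmp13 also hold the TATA motif TATAAA, found in 12.4% of all windows, and Plaur holds an NF-kB motif (GGGA, any 4 bases, CC), found in 17.6%. The GC box GGGCGG, found in 32.7% of all windows, stands before Mmp14, Timp1, Timp2, Timp3 and Plaur, and the STAT motif TTCNNNGAA, found in 7.02%, before none of the 7. All 5 motifs were searched on both strands, and 0 of the AP-1 matches overlapped a match of another motif. These are matches of letters, and binding was not measured.

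Mmp3, stromelysin-1, digests many matrix proteins and activates other metalloproteinases (chromosome 9, 7445822 to 7455975, mm10). It had 15.5, 2.63 and 12.2 FPKM in the YKL-40 libraries, against 0.0758, 0.772 and 2.54 FPKM in the controls. The groups did not overlap, but the lowest YKL-40 library and the highest control were almost level. The means were 10.1 ± 6.66 FPKM in YKL-40 tumours and 1.13 ± 1.27 FPKM in controls (SD, n = 3 each), an 8.94-fold ratio. The log2 difference was 2.29 ± 0.63 (SE), with a 95% interval from 0.82 to 3.76 and an adjusted p of 0.139 in limma. Mmp3 passed in 2 of 15 alternative fits, whose adjusted p ran from 0.0217 to 0.362. Without YKL-40 library 2 the difference was 2.96 and the adjusted p was 0.0385, in a fit that called 2.12% of all tested genes. With array quality weights, which give less weight to libraries that stand apart, they were 2.49 and 0.0217, in a fit that called 9.88%. With pseudocounts of 0.1 and 0.01 the difference was 3.44 and 3.84, without a call. As in all bulk samples, more cells that make a transcript and more RNA per cell cannot be told apart.

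**Figure D1:**
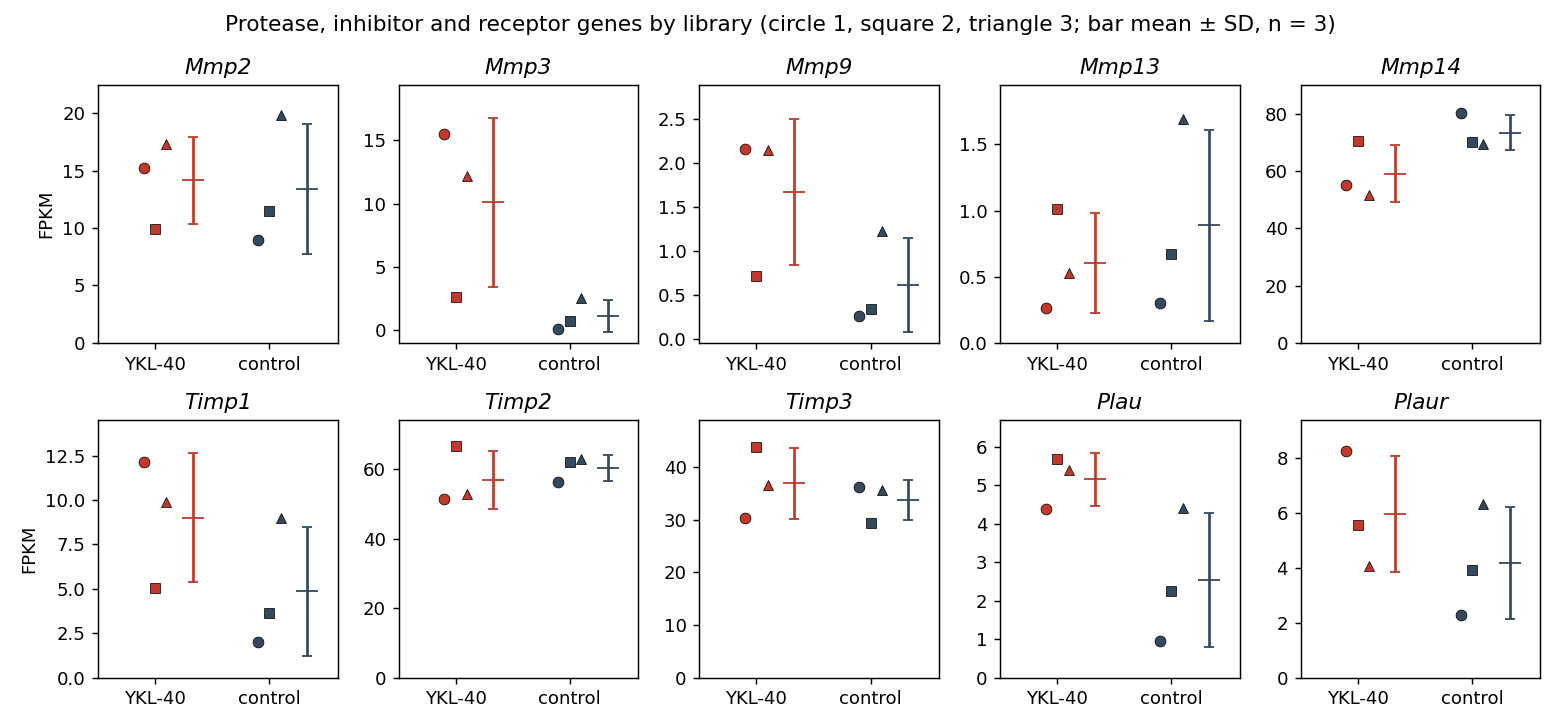
FPKM of each of the 10 genes in the 3 YKL-40 libraries (red) and the 3 control libraries (dark blue), with the symbol giving the replicate number and the bar the mean ± SD (n = 3). Mmp3 is the gene whose groups do not overlap, with the lowest YKL-40 library at 2.63 and the highest control at 2.54 FPKM, while the groups of the other 9 overlap.

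Mmp9, gelatinase B, cuts denatured collagen and collagen IV (chromosome 2, 164940326 to 164955850). It had 2.17, 0.718 and 2.15 FPKM in the YKL-40 libraries, against 0.270, 0.346 and 1.23 FPKM in the controls. YKL-40 library 2 lay below control 3, so the groups overlapped. Its log2 difference was 0.72 ± 0.31 (SE), with an interval from -0.01 to 1.45 (limma adjusted p = 0.285), and it was 1.41 with a pseudocount of 0.1 and larger still with 0.01.

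Mmp2, gelatinase A, has the same kind of substrate and is activated at the cell surface by Mmp14 together with Timp2 (chromosome 8, 92827290 to 92853421). It had 15.2, 9.94 and 17.3 FPKM in the YKL-40 libraries, against 8.93, 11.5 and 19.8 FPKM in the controls. The highest value and the lowest value were both in controls. A log2 difference of 0.11 ± 0.30 (SE), with an interval from -0.58 to 0.81, was found, which became -0.12 without control 1 and -0.04 without YKL-40 library 3.

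Mmp14, the membrane-anchored collagenase MT1-MMP, was the most abundant member (chromosome 14, 54431598 to 54442456). It had 55.1, 70.6 and 51.8 FPKM in the YKL-40 libraries, against 80.4, 70.3 and 69.6 FPKM in the controls. YKL-40 libraries 1 and 3 were below every control, and library 2 lay within the control range. The log2 difference was -0.32 ± 0.13 (SE), with an interval from -0.63 to -0.00 and an adjusted p of 0.277 in limma.

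Mmp13, a collagenase of cartilage, bone and tumour stroma, averaged under 1 FPKM and was therefore left out of the fit (chromosome 9, 7272514 to 7283333). It had 0.265, 1.01 and 0.526 FPKM in the YKL-40 libraries, against 0.300, 0.673 and 1.69 FPKM in the controls. The groups overlapped, with the highest value in control 3 and the lowest in YKL-40 library 1 (p = 0.6 in an exact permutation test, two-sided, which cannot go below 0.1 with these group sizes). The libraries with the most Mmp3 were not those with the most Mmp13: YKL-40 library 1 had the highest Mmp3 and the lowest Mmp13.

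Urokinase, encoded by Plau (chromosome 14, 20836662 to 20843388), had 4.37, 5.68 and 5.40 FPKM in the YKL-40 libraries, against 0.962, 2.25 and 4.40 FPKM in the controls. The spread lay mostly within the controls, and control 3 was just above YKL-40 library 1. The log2 difference was 0.91 ± 0.33 (SE), with an interval from 0.13 to 1.69 and an adjusted p of 0.224 in limma, and it was 0.55 without control 1 and 1.28 without control 3.

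The urokinase receptor gene Plaur (chromosome 7, 24460937 to 24475970) had 8.23, 5.54 and 4.07 FPKM in the YKL-40 libraries, against 2.30, 3.91 and 6.31 FPKM in the controls. The groups overlapped, and the log2 difference was 0.46 ± 0.32 (SE), with an interval from -0.29 to 1.21. It was 0.17 without control 1, 0.23 without YKL-40 library 1, 0.74 without control 3 and 0.18 with array quality weights. The FPKM ratio of Plau to Plaur was 0.531, 1.03 and 1.33 in the YKL-40 libraries, against 0.419, 0.577 and 0.697 in the controls, also with overlap.

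Among the inhibitors, Timp1, which binds proMMP9 and blocks most secreted metalloproteinases, differed most between libraries (chromosome X, 20870166 to 20874737). It had 12.1, 5.03 and 9.88 FPKM in the YKL-40 libraries, against 2.01, 3.63 and 8.96 FPKM in the controls. The groups overlapped at YKL-40 library 2 and control 3. Its log2 difference was 0.88 ± 0.46 (SE), with an interval from -0.19 to 1.95 and an adjusted p of 0.362 in limma, and it was 0.49 without control 1 and 1.35 without control 3.

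Timp2, which both inhibits Mmp2 and helps Mmp14 to activate it, was the most abundant inhibitor (chromosome 11, 118301061 to 118355411). It had 51.4, 66.6 and 52.9 FPKM in the YKL-40 libraries, against 56.2, 62.0 and 62.9 FPKM in the controls. The highest and the lowest value were both in YKL-40 tumours. Its log2 difference was -0.09 ± 0.12 (SE), with an interval from -0.37 to 0.19.

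Timp3 is the TIMP that stays bound to the matrix and also inhibits ADAM proteases (chromosome 10, 86300412 to 86349505). It had 30.4, 43.9 and 36.6 FPKM in the YKL-40 libraries, against 36.3, 29.5 and 35.6 FPKM in the controls, with overlap. Its log2 difference was 0.12 ± 0.15 (SE), with an interval from -0.24 to 0.47, and it was -0.01 without YKL-40 library 2. Of its 8144 exon bases, 1733 overlap exons of Syn3 on the other strand in the GENCODE annotation of this build, and the library kit keeps no strand. Syn3 had between 0.334 and 0.897 FPKM, far below Timp3.

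**Figure D2:**
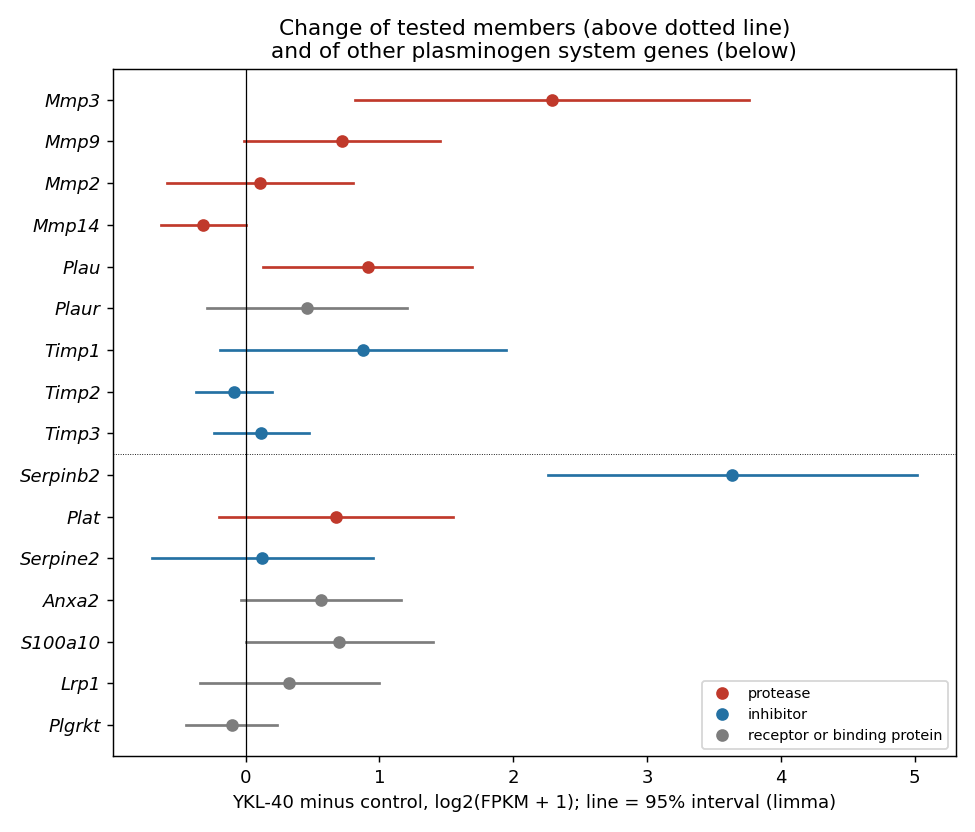
Difference of YKL-40 minus control on the log2(FPKM + 1) scale for the 9 tested members (above the dotted line) and for 7 other plasminogen system genes (below), with lines for the 95% interval from limma. The intervals of Mmp3, Plau and Serpinb2 lie above 0 and that of Mmp14 ends at -0.00, and none of the genes shown passes the adjusted threshold.

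The members differed in how much they varied. Across all 6 libraries the highest value was 1.30 times the lowest for Timp2, 1.49 times for Timp3 and 1.55 times for Mmp14, the 3 most abundant members. It was 2.22 times for Mmp2, 3.58 for Plaur, 5.91 for Plau, 6.04 for Timp1, 6.39 for Mmp13, 8.01 for Mmp9 and 204 for Mmp3.

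The libraries also differed within each group. Of the 10 members, 8 were lowest in control 1 among the 3 controls, and 8 were highest in control 3. Over all 6 libraries, control 1 held the lowest value of 6 members. YKL-40 library 1 held the highest value of 4 members, Mmp3, Mmp9, Timp1 and Plaur.

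Proteases were then set against inhibitors. The proteases here are the metalloproteinase members and Plau, although TIMPs block metalloproteinases and Plau is not one. The sums and scores are therefore no balance of each enzyme with its own inhibitor. The summed FPKM of the 6 proteases was 92.6, 90.6 and 89.4 in the YKL-40 libraries, against 90.9, 85.8 and 99.2 in the controls. The sum of the 3 TIMPs was 93.9, 115 and 99.4 FPKM in the YKL-40 libraries, against 94.4, 95.05 and 107 FPKM in the controls. Both sums lay between 85.8 and 115 FPKM in every library, and their ratio of proteases to TIMPs averaged 0.890 ± 0.101 in YKL-40 tumours and 0.930 ± 0.0305 in controls (SD, n = 3 each).

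The make-up of the protease sum was less even. Mmp14 made up 59.5%, 77.9% and 58.0% of it in the YKL-40 libraries, against 88.4%, 81.9% and 70.1% in the controls. Without Mmp14 the sum was 37.5, 20.0 and 37.5 FPKM in the YKL-40 libraries, against 10.5, 15.5 and 29.7 FPKM in the controls. YKL-40 library 2 lay between the controls on both measures, so the groups overlapped. Timp1 made up 12.9%, 4.35% and 9.94% of the TIMP sum in the YKL-40 libraries, against 2.12%, 3.82% and 8.34% in the controls.

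**Figure D3:**
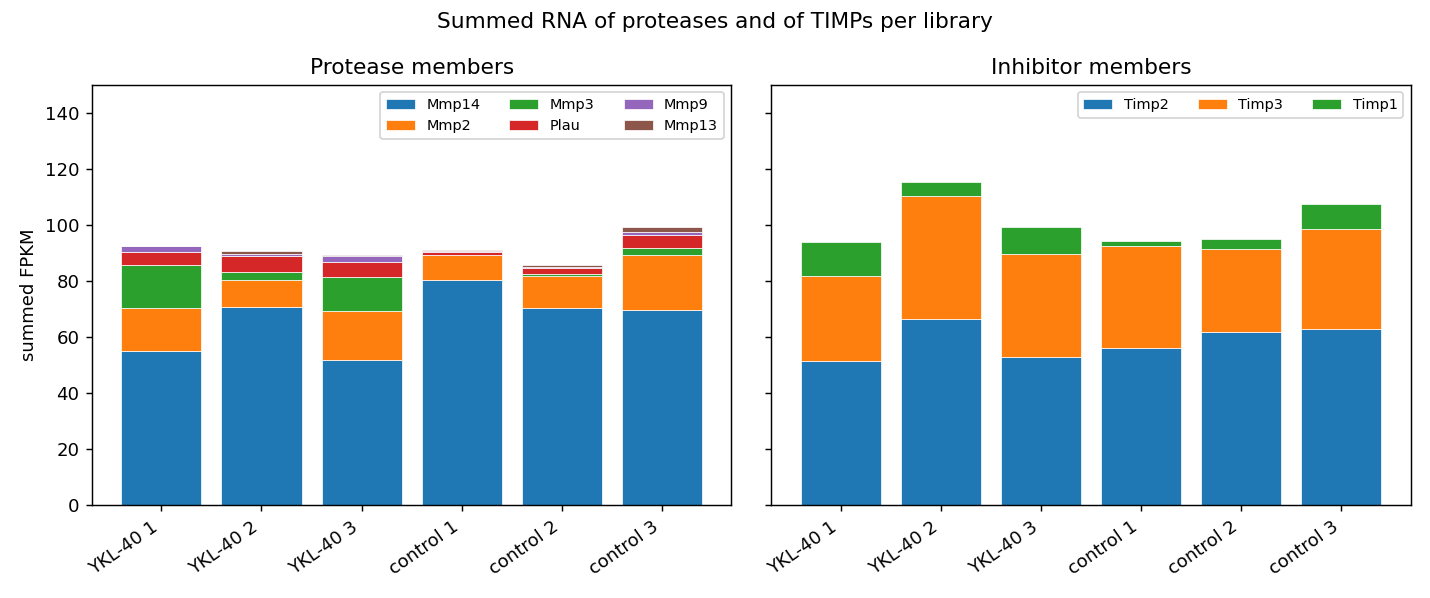
Summed FPKM of the 6 proteases (left) and the 3 TIMPs (right) in each library, stacked by gene. The sums lie between 85.8 and 115 FPKM. The part of the protease sum that is not Mmp14 is 37.5 FPKM in YKL-40 libraries 1 and 3. It is 20.0 FPKM in YKL-40 library 2, within the 10.5 to 29.7 FPKM of the controls.

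Means of log2(FPKM + 1) keep abundant genes from dominating, although differences between low values are understated. On this scale the mean of the proteases minus that of the TIMPs was -1.75, -2.05 and -1.71 in the YKL-40 libraries, against -2.30, -2.12 and -1.94 in the controls. The group means were -1.84 ± 0.19 and -2.12 ± 0.18 (SD, n = 3 each), a difference of 0.29 with overlapping groups. Among the proteases the log2 difference was 2.29 for Mmp3, against -0.32 to 0.91 for the others. The score therefore leans on Mmp3 and does not show a shift of the proteases as a class. It was not computed without Mmp3. Of the enzyme and inhibitor pairs, Mmp3 to Timp1 had FPKM ratios of 1.28, 0.524 and 1.23 in the YKL-40 libraries, against 0.0378, 0.213 and 0.283 in the controls, without overlap. Mmp9 to Timp1 had ratios of 0.179, 0.143 and 0.217 in the YKL-40 libraries, against 0.135, 0.0953 and 0.137 in the controls. These groups did not overlap either, but on the log2(FPKM + 1) scale they did, with means of -1.88 in YKL-40 tumours and -1.73 in controls.

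Mmp14 to Timp2, the pair that activates Mmp2, had ratios of 1.07, 1.06 and 0.980 in the YKL-40 libraries, against 1.43, 1.13 and 1.11 in the controls. All 3 YKL-40 libraries were lower than every control, by a small margin. The Mmp2 to Timp2 ratio was 0.296, 0.149 and 0.327 in the YKL-40 libraries, against 0.159, 0.185 and 0.315 in the controls, and overlapped. The Mmp13 to Timp1 ratio was 0.0219, 0.201 and 0.0532 in the YKL-40 libraries, against 0.150, 0.185 and 0.189 in the controls, with YKL-40 library 2 above all others. No test was made of these ratios, since they combine members. How often ratios of other gene pairs have groups without overlap was not counted. Among single tested genes the share was 24.4%.

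The rest of the plasminogen system held the largest log2 difference among the tested protease and inhibitor genes of these lists. Serpinb2, the inhibitor PAI-2 that blocks urokinase (chromosome 1, 107500892 to 107525600), had 37.2, 6.21 and 25.1 FPKM in the YKL-40 libraries, against 0.0713, 0.546 and 1.24 FPKM in the controls. Every YKL-40 library was well above every control. This was a log2 difference of 3.64 ± 0.59 (SE), with an interval from 2.26 to 5.02 and an adjusted p of 0.0708 in limma. It passed in 4 of 15 alternative fits, whose differences ran from 3.15 to 5.55 and adjusted p from 0.00691 to 0.190. These were the fits without control 3 (adjusted p = 0.0466, with 1.86% of all tested genes called), without YKL-40 library 2 (0.00691, with 2.12%), with array quality weights (0.00745, with 9.88%) and with a replicate block (0.0472, with 1.07%), although the replicate numbers do not pair the libraries. Of its 2349 exon bases, 291 overlap exons of Serpinb10 on the same strand, which had at most 0.0916 FPKM.

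S100a10, which binds plasminogen at the cell surface as a partner of annexin A2, had the highest mean level of this list over all 6 libraries, at 124 ± 51.7 FPKM in YKL-40 tumours and 72.8 ± 17.4 FPKM in controls (SD, n = 3 each), while in the controls alone its partner Anxa2 was higher, at 77.0 ± 16.6 FPKM. Of 9 listed genes, 7 were tested and 0 passed in limma, with a median difference of 0.56. Serpinb2 was the 1 gene under 0.05 without adjustment. Plasminogen itself, Plg, was listed at 0 in all 6 libraries.

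Of 18 other metalloproteinase genes, 6 were tested and 0 passed in limma (unadjusted, 1 lay under 0.05), with a median difference of -0.28. That gene was Mmp19, which had 4.16, 2.44 and 4.11 FPKM in the YKL-40 libraries, against 0.295, 1.02 and 2.24 FPKM in the controls. The groups did not overlap, and the log2 difference was 1.14 ± 0.33 (SE, limma adjusted p = 0.155). It passed in 1 of 14 alternative fits, the one with array quality weights, where the adjusted p was 0.0340 and 9.88% of all tested genes were called. Mmp11, a metalloproteinase of tumour stroma, was lower in every YKL-40 library than in any control, at 1.24 ± 0.629 FPKM in YKL-40 tumours and 1.92 ± 0.0695 FPKM in controls (limma adjusted p = 0.347). YKL-40 library 2, at 1.86 FPKM, was almost level with the lowest control, at 1.88 FPKM. Mmp24, a membrane-type enzyme and the most abundant of the list, had 7.10 ± 1.08 FPKM in YKL-40 tumours and 6.26 ± 0.642 FPKM in controls.

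Mmp3 and Mmp13 lie in a row of 10 metalloproteinase genes on chromosome 9, between 7272514 and 7699585. Within it, 4 genes were listed at 0 in every library, Mmp1a, Mmp1b, Mmp7 and Mmp20. The neighbours, named here for their place in the row, did not share 1 pattern. Mmp12, the macrophage elastase, had 0.917, 4.71 and 1.48 FPKM in the YKL-40 libraries, against 1.40, 3.48 and 9.40 FPKM in the controls, and was highest in control 3 as Mmp13 was. Mmp8, the neutrophil collagenase, had 0.0539, 0.170 and 0.0480 FPKM in the YKL-40 libraries, against 0.0650, 0.107 and 0.479 FPKM in the controls, and was again highest in control 3.
Mmp10, stromelysin-2, had 0.272, 0.281 and 0.292 FPKM in the YKL-40 libraries, against 0.0136, 0.122 and 0.244 FPKM in the controls. Mmp27 had 0.445, 0.507 and 0.393 FPKM in the YKL-40 libraries, against 0.111, 0.246 and 0.0315 FPKM in the controls. Both had groups without overlap at levels below the filter, and neither was tested.

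**Figure D4:**
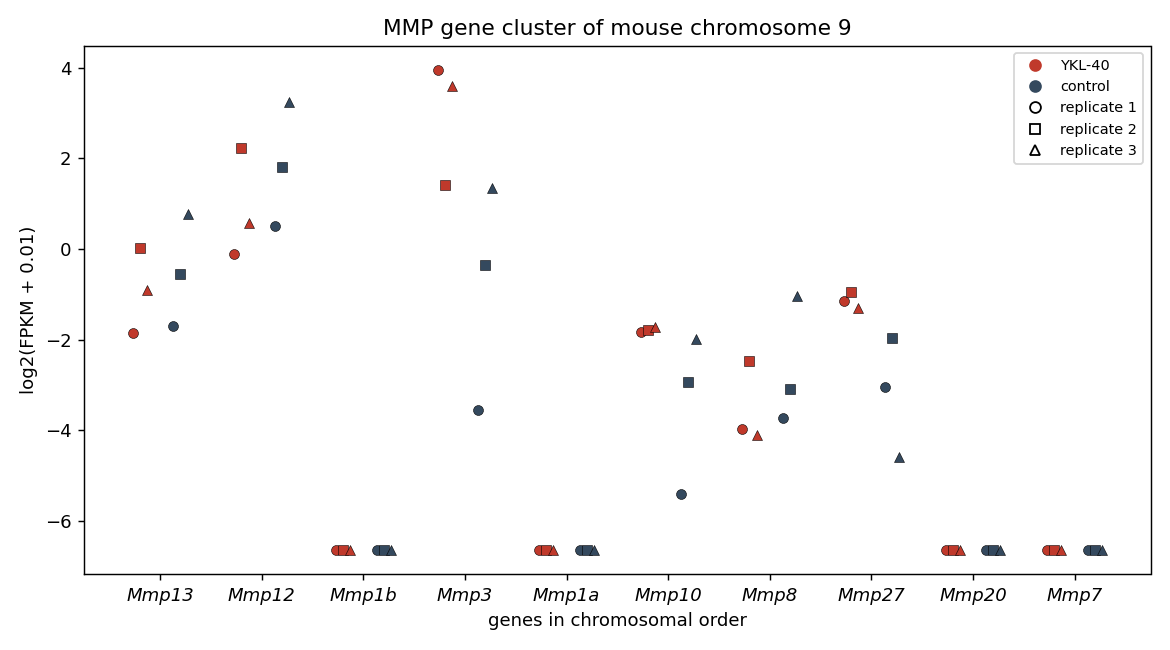
Level as log2(FPKM + 0.01) of the 10 metalloproteinase genes of the chromosome 9 row, in chromosomal order, with YKL-40 libraries in red and controls in dark blue. Mmp3, Mmp10 and Mmp27 have higher values in every YKL-40 library than in any control, Mmp12, Mmp13 and Mmp8 are highest in control 3, and 4 genes sit at the floor where the table lists 0.

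Genes that activate or restrain metalloproteinases were also measured. Of 8 listed, 4 were tested and 0 passed in limma (unadjusted, 1 lay under 0.05), with a median difference of 0.42. Furin, the convertase that cuts the propeptide of Mmp14, had 37.1, 29.6 and 30.1 FPKM in the YKL-40 libraries, against 22.8, 22.1 and 28.7 FPKM in the controls. Its groups did not overlap, and the log2 difference was 0.38 ± 0.14 (SE, limma adjusted p = 0.216). Bsg, the metalloproteinase inducer EMMPRIN, averaged 116 ± 35.6 FPKM in YKL-40 tumours and 79.3 ± 13.0 FPKM in controls (SD, n = 3 each), with an adjusted p of 0.283 in limma.

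Of 16 ADAM and ADAMTS proteases, 14 were tested and 0 passed in limma (unadjusted, 3 lay under 0.05, all lower), with a median difference of -0.17. Adam12, a membrane-bound protease, averaged 18.9 ± 5.14 FPKM in YKL-40 tumours and 33.9 ± 14.1 FPKM in controls. Its groups overlapped, with 15.2, 24.7 and 16.7 FPKM in the YKL-40 libraries, against 49.9, 23.1 and 28.7 FPKM in the controls. Adamts4, an aggrecan-cutting enzyme, averaged 27.4 ± 1.02 FPKM in YKL-40 tumours and 35.9 ± 6.81 FPKM in controls. Their log2 differences were -0.77 ± 0.29 and -0.36 ± 0.14 (SE, limma adjusted p = 0.238 and 0.249). Adamts1, the most abundant of the list, averaged 85.7 ± 24.1 FPKM in YKL-40 tumours and 83.3 ± 13.6 FPKM in controls.

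Markers of other cells in the tumour were measured beside the members. The summed FPKM of 8 fibroblast markers was 157 to 268 in the YKL-40 libraries, against 22.3 to 175 in the controls. Control 1 was lowest and control 3 highest of the controls, as for 8 of the 10 members. The macrophage, endothelial and pericyte sums given below had this order too, and its share over all genes was not counted. All 7 tested fibroblast markers had a difference above 0 and 0 passed in limma (unadjusted, 6 lay under 0.05). Of these 7, 4 were higher in YKL-40 tumours without overlap, beside 10.3% of all tested genes, and Pdgfrb was almost level at 0.08. Col1a1 and Col1a2 made up most of the sum in every library. Lum averaged 8.10 ± 2.92 FPKM in YKL-40 tumours and 1.92 ± 0.650 FPKM in controls. The sum of 8 macrophage markers was 142 to 220 FPKM in the YKL-40 libraries, against 38.4 to 112 FPKM in the controls, with 7 of 7 tested markers above 0 and 0 past the adjusted threshold in limma (unadjusted, 6 lay under 0.05). Of these 7, 4 were higher without overlap, beside the same 10.3%, while Cd68, Csf1r and Mrc1 overlapped. C1qa was the highest of the list in every library, at 63.2 to 99.2 FPKM in YKL-40 tumours and 12.6 to 32.3 FPKM in controls. The part of these cells in the members' values was not tested.

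The sum of 7 skeletal muscle markers was 3.39 to 24.3 FPKM in the YKL-40 libraries, against 39.7 to 164 FPKM in the controls, and all 7 were lower in every YKL-40 library than in any control, with 0 past the adjusted threshold in limma (unadjusted, 7 lay under 0.05). Neutrophil markers summed to 2.40 to 7.83 FPKM in the YKL-40 libraries, against 0.659 to 15.2 FPKM in the controls, and Ly6g was listed at 0 throughout. Endothelial markers summed to 48.7 to 76.7 FPKM in the YKL-40 libraries, against 39.8 to 87.4 FPKM in the controls, and pericyte markers to 29.8 to 90.3 FPKM in the YKL-40 libraries, against 49.7 to 88.8 FPKM in the controls.
Keratinocyte markers summed to at most 0.119 FPKM in a library. Bone and cartilage markers summed to 1.98 to 3.51 FPKM in the YKL-40 libraries, against 2.95 to 5.86 FPKM in the controls, and osteoclast markers to 7.69 to 11.8 FPKM in the YKL-40 libraries, against 6.26 to 7.15 FPKM in the controls. Ctsk made up most of the osteoclast sum in every library, so that sum does not show a shift of the list as a whole. The lowest YKL-40 library had 6.98 FPKM of Ctsk and the highest control 6.83 FPKM (limma adjusted p = 0.365). Acp5 had at most 1.18 FPKM and Oscar at most 0.0360 FPKM in a library. The bone gene Ibsp and the osteoclast gene Calcr were listed at 0 in all 6 libraries. The 7 melanoma markers summed to 8577 to 10681 FPKM in the YKL-40 libraries, against 8570 to 10027 FPKM in the controls. In limma 0 markers of the endothelial, pericyte, neutrophil, bone, osteoclast and melanoma lists passed. However, only 1 of 8 neutrophil, 1 of 5 bone and cartilage and 1 of 4 osteoclast markers was tested. Unadjusted, 1 endothelial and 1 melanoma marker, Tek and Pmel, were higher and 1 pericyte and 1 cartilage marker, Cspg4 and Col2a1, were lower under 0.05. The share of all tested genes under 0.05 was 18.0%. The lists did not all follow these genes. Of the tested markers, 4 endothelial lay above 0 and 2 below, 2 melanoma above and 5 below, and all 4 pericyte below.

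Set against the mean log2 level of the 7 tested fibroblast markers, a comparison added after the values were seen, no member was higher in YKL-40 tumours without overlap, beside 0.400% of all tested genes, and 6 of the 10 were lower without overlap, beside 66.8%. The marker level itself was 3.68 to 4.40 in the YKL-40 libraries, against 1.78 to 3.57 in the controls, so a gene that is level between the groups comes out lower on this measure. Mmp3 stood at -0.01, -1.81 and -0.69 relative to these markers in the YKL-40 libraries, against -1.68, -1.72 and -1.75 in the controls. YKL-40 libraries 1 and 3 lay above the controls on this measure, and library 2 just below them. Timp1 stood at -0.34, -1.08 and -0.96 in the YKL-40 libraries, against -0.20, -0.34 and -0.25 in the controls.
Mmp14 stood at 1.76, 2.49 and 1.32 in the YKL-40 libraries, against 4.56, 3.61 and 2.57 in the controls. Against the 7 tested macrophage markers, whose level did not overlap either, 6 of the 10 members were lower without overlap, beside 66.6% of all tested genes. Both counts are near the share over all genes. Serpinb2 was higher without overlap against either list, beside 0.400% and 0.463% of all tested genes, at 1.20, -0.83 and 0.30 in the YKL-40 libraries, against -1.68, -1.92 and -2.41 in the controls for the fibroblast markers.

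**Figure D5:**
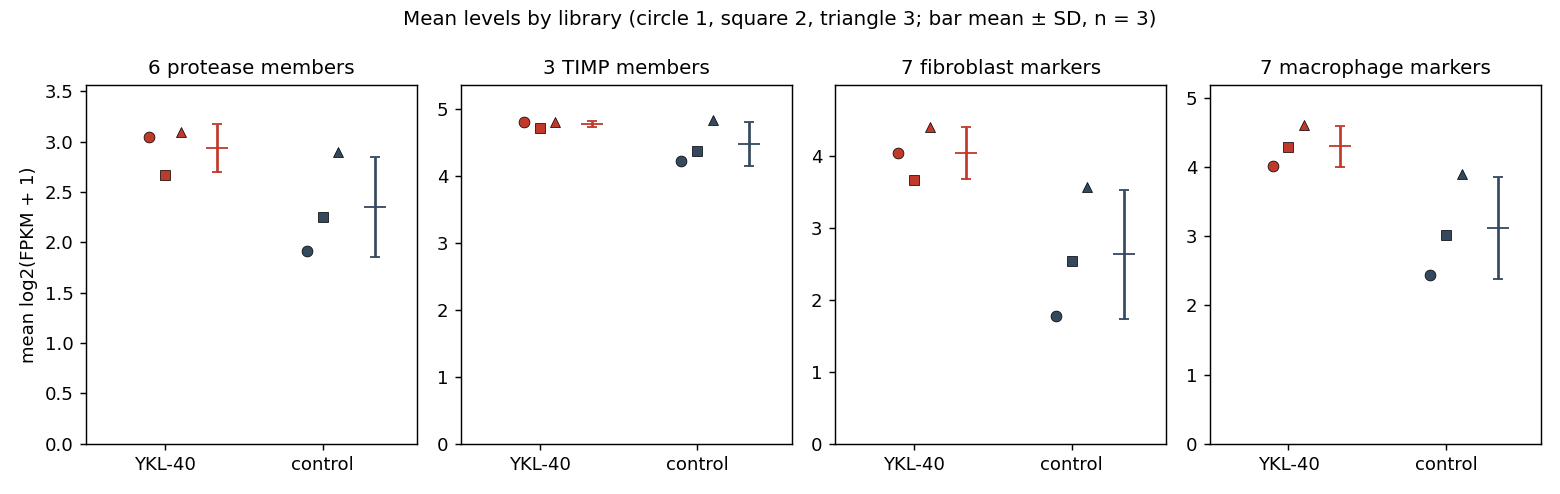
Mean log2(FPKM + 1) of the 6 proteases, the 3 TIMPs and the 7 tested fibroblast and macrophage markers in each library, with YKL-40 in red, controls in dark blue and bars for the mean ± SD (n = 3). Control 1 is lowest and control 3 highest of the controls in all 4 panels, and the fibroblast markers average 4.04 ± 0.36 in YKL-40 tumours and 2.63 ± 0.90 in controls.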

How the data were processed

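The authors deposited 1 FPKM value per gene and library, for 20938 genes and 6 libraries made from 2 µg of RNA with a TruSeq v2 kit, per the labels' protocols. Per the submitters' processing notes the tools were HISAT2, StringTie, limma, DESeq2 and bcl2fastq 2.0 on build mm10, without their roles. Neither the annotation nor how transcripts were combined per gene is stated there, so levels of genes with several transcripts depend on it. Groups came from the labels. The 11241 genes that averaged 1 FPKM or more were tested as log2(FPKM + 1) with limma 3.58.1 in R 4.3.3 (moderated variances with a trend over expression, two-sided, Benjamini-Hochberg adjustment over all tested genes, threshold 0.05). The fit was tested on data simulated with known differences. Relative depth was read from low genes (below 0.3 FPKM), as the ratio to control 1 that recurs most often near 1. The members and gene lists were chosen with earlier results of these data known. The members are all named, and 1 gene of the plasminogen list is not reported here. From each other list the rule names tested genes past the threshold, otherwise those of lowest p and the most abundant. In the marker lists the rule was not followed in full, and not all of those genes are named. Any further gene, such as the chromosome 9 neighbours and genes listed at 0, was chosen after its values were seen. Positions and promoters came from RefSeq tables of GRCm38.p6, the assembly of mm10, in which all 10 members had a position. Alternatives were other pseudocounts, filters, scalings and variance models, a replicate block, array weights and leaving out each library.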

Additional observations from a re-analysis of the deposited data

How the results depend on the processing

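Of the 9 tested members, 0 passed in limma (unadjusted, 3 lay under 0.05), and 0 also passed under every alternative except array quality weights and the fit without YKL-40 library 2, with 1 each, which was Mmp3. The count was 0 to 1 when each library was left out in turn. Of 31 tested related genes 0 passed in limma (unadjusted, 6 lay under 0.05), with 1 under the replicate block, 2 under array quality weights and 0 to 1 with a library left out. The protease minus TIMP difference of 0.29 was 0.56 and 0.65 with pseudocounts of 0.1 and 0.01, and 0.19 to 0.39 with a library left out. Directions turned for Mmp2 (-0.04 without YKL-40 library 3, and -0.12 to 0.41 with a library left out) and Timp3 (-0.011 to 0.25), and the cause was not tested. Replicate numbers did not pair the libraries. Same-numbered libraries had correlations of their deviations of -0.08, -0.19 and 0.00, and the block changed no member's call. Over all genes the count of 49 was 120 with the block, 1111 with array weights, 1 without a filter and 0 to 238 with a library left out. Reads per value are unknown, so low genes such as Mmp13 have no counting interval.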
